A study of Homo sapiens with 5 samples.

Results

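The transcriptome of untreated RPE1 cells was read from the 2 control libraries of a series of 5 RNA-seq libraries. The members were the 2 libraries labelled DMSO, the solvent of the drug, and no treated library entered the ranking of genes. RPE1 is a long-used human line derived from the retinal pigment epithelium, wild type by its label, and every library came from this line, so no second line or primary tissue stands beside it. The control cells received DMSO for 18 h. The other libraries came from cells given doxorubicin for 18 h, 2 at 0.2 μM and 1 at 0.34 μM, and doxorubicin is an anthracycline that poisons topoisomerase II. The treatment labels give these doses, whereas the protocol text of the labels gives higher ones, and the treatment labels were followed.

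The retinal pigment epithelium is a pigmented sheet behind the photoreceptors. It recycles the chromophore of the visual pigments, takes up shed outer segments and moves ions, water and nutrients between the blood and the retina. OTX2 and MITF are transcription factors of its development, and melanin is made in its melanosomes. In culture such cells are known to flatten and to lose pigment.

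Poly-A RNA was sequenced and the authors counted reads per gene. The counts on genes summed to 26717453 in DMSO replicate 1 and 24466976 in DMSO replicate 2, within the range of 23773061 to 36725345 over all 5 libraries. A level is given as CPM, the count per 1000000 counts of the library, so it is a share of reads, and levels of different genes are compared only per length, as TPM, which is counts per kilobase of transcript scaled to the same sum in each library. With 3 counts as the limit of detection, 0 counts allow up to 0.112 CPM in replicate 1 and 0.123 CPM in replicate 2, which covers counting error only. The 2 DMSO libraries were not copies of each other. A chi-square of their counts was 117 per degree of freedom over 13638 genes, against 75.3 for the 0.2 μM pair and 9.01 for 0.2 μM replicate 1 set against the 0.34 μM library. Pearson's r of their log2 CPM across 9255 genes was 0.936, where the genes share library and depth and are not independent replicates. Values of both DMSO libraries are therefore given throughout. The methods call the 2 libraries biological replicates, and nothing in the labels says whether they came from separate cultures.

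Of 26485 genes, non-coding genes and pseudogenes among them, 12101 had at least 1 CPM in both DMSO libraries (45.7%), which is called detected below. Another 678 genes reached 1 CPM in 1 library and not in the other. At the low end, 8707 genes had 0 counts in both libraries and 11091 had at most 3 counts in each, which is not detectable at this depth. By mean level, 88 genes had at least 1000 CPM, 2101 had 100 to 1000 CPM, 7066 had 10 to 100 CPM and 3253 had 1 to 10 CPM. The 10 genes with most reads took 7.78% of the counts of replicate 1 and 7.05% of those of replicate 2. For the first 100 genes the shares were 23.0% and 20.9%, and for the first 1000 genes 55.5% and 53.3%. Among the 20676 genes with a matched transcript length, 11164 were detected, a larger share than the 45.7% of all genes used below.

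The gene with most reads was FN1, which codes for fibronectin, a glycoprotein of the extracellular matrix. It lies on hg38 at chr2:215360865-215436068 and took 18831 CPM in replicate 1 and 9475 CPM in replicate 2, values farther apart than those of any other of the 20 genes with most reads. Among those 20, the cytoskeleton was represented by ACTB, at 10877 and 6975 CPM, and ACTG1, at 6714 and 5173 CPM, both cytoplasmic actins. VIM, the intermediate filament vimentin, had 5687 and 6057 CPM, and FLNA, the actin crosslinker filamin A, had 4735 and 4842 CPM. MYH9, a non-muscle myosin heavy chain, had 5093 and 3082 CPM, and the tubulin genes TUBA1B and TUBB had 3527 and 3099 CPM and 2094 and 3085 CPM. Matrix and adhesion were represented, beside FN1, by THBS1 (thrombospondin 1) at 5366 and 4903 CPM, VCAN (the proteoglycan versican) at 3171 and 2715 CPM, and ITGB1 (integrin beta 1) at 4153 and 3277 CPM.

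Housekeeping genes in the same 20 were EEF1A1, a translation elongation factor, at 6244 and 8648 CPM, GAPDH at 4074 and 4801 CPM, PKM at 4639 and 3935 CPM and PABPC1 at 2877 and 2194 CPM. GAPDH and PKM are enzymes of glycolysis, and PABPC1 binds poly-A tails. The remaining places went to ribosomal RNA and to members of a gene family with near-identical copies. RNA18S5 had 10199 and 13907 CPM and RNA28S5 had 3225 and 4930 CPM, although poly-A RNA was selected. The 4 nuclear rRNA genes of the table together took 1.35% and 1.90% of the DMSO counts, against 2.83% to 2.95% in the doxorubicin libraries. NBPF10, at 5027 and 5679 CPM, and NBPF14, at 2991 and 3506 CPM, belong to a duplicated family whose copies share sequence, so the split of reads between copies is uncertain. The actins, the tubulins and EEF1A1 also have close paralogs or processed copies. The 81 cytosolic ribosomal protein genes were all detected and took 3.02% and 3.67% of the counts, and no row of the table carried a mitochondrially encoded gene.

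**Figure D1:**
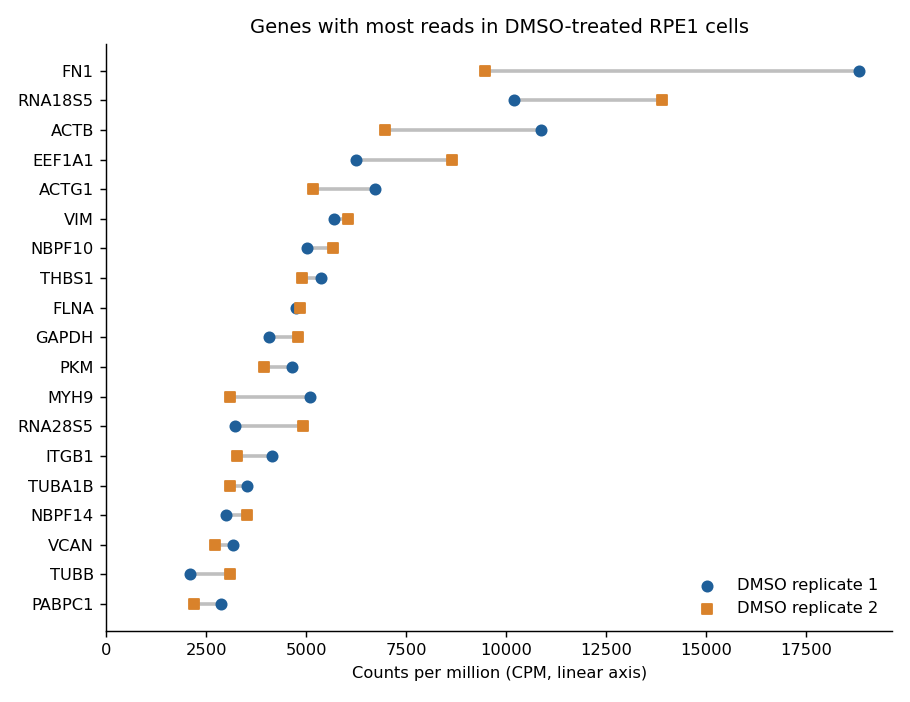
CPM (linear axis from 0) of 19 of the 20 genes with most reads in the DMSO libraries, ordered by mean, with a circle for replicate 1, a square for replicate 2 and a grey bar between them. FN1 lies at 18831 and 9475 CPM, while VIM (5687 and 6057 CPM) and FLNA (4735 and 4842 CPM) lie close together in both libraries.

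Per length the order changed. By TPM the genes ranked 1 to 3 were ACTB (17675 in replicate 1 and 11030.4 in replicate 2), GAPDH (9336 and 10708) and ACTG1 (10301 and 7725). FN1, whose transcript of 8390 bases gives many fragments per molecule, was ranked 14 with 6609 and 3236 TPM. VIM was ranked 5 with 7774 and 8059 TPM, inside the ranges of BCYRN1 and MT2A, the genes next to it. Short transcripts moved up. MT2A, a metal-binding metallothionein, was ranked 6 with 8462 and 6504 TPM, TMSB10 (thymosin beta 10, which binds actin monomers) was ranked 8 with 5153 and 7067 TPM, and PFN1 (profilin, another actin-binding protein) was ranked 9 with 7818 and 4305 TPM. BCYRN1, a non-coding RNA of 200 bases that derives from an Alu repeat, was ranked 4 with 5415 and 10595 TPM, and reads of other Alu copies could enter its count. Among genes with a matched length, ACTB was ahead of the others in both libraries. For ranks 2 to 10 the values of each gene overlapped those of the next, so their order is not resolved. A transcript length was matched for 11164 of the 12101 detected genes.

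The label of the cells was set against its 9 marker genes, of which 5 were detected, against 45.7% of all genes. KRT8 and KRT18, the paired keratins of simple epithelia, had 362 and 361 CPM and 321 and 248 CPM. VIM was as given above. MITF had 55.7 CPM in replicate 1 and 30.4 CPM in replicate 2, and OTX2 had 28.7 and 24.6 CPM. The markers of the differentiated epithelium were at or under 1 CPM. RPE65, the isomerase of the visual cycle, had 8 and 3 counts, which is 0.299 and 0.123 CPM. BEST1, the chloride channel bestrophin, had 26 and 14 counts (0.973 and 0.572 CPM), and these may include reads of FTH1, which it overlaps. PMEL, which forms the fibrils of the melanosome, had 7 and 5 counts. RLBP1, the retinaldehyde-binding protein, had 1 and 0 counts and was not detectable. Of the 9 markers, OTX2, MITF, KRT8 and KRT18 thus went with the label, and the mature markers went against it. In the wider lists below, 12 of 30 epithelial junction genes and 27 of 30 mesenchymal genes were detected. KRT8 and KRT18 alone therefore do not settle the epithelial part of the label. In bulk RNA, fewer cells of a type and less RNA per cell cannot be told apart.

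Several genes of eye development were detected. Of 16 transcription factors of the eye field and pigment epithelium, 9 were detected, against 45.7% of all genes. SIX3, a factor of the early eye and forebrain, had 238 and 148 CPM, and SOX9 had 179 and 180 CPM. PAX6, which is required for eye formation, had 77.5 and 49.6 CPM, and MEIS2 had 54.3 and 51.6 CPM. By TPM the means were 208 for SIX3, 133 for SOX9, 67.5 for PAX6, 28.0 for MEIS2, 26.1 for MITF and 25.7 for OTX2, and the last 3 differed by less than the spread of MITF between the libraries. CRX, RAX and SIX6, factors of photoreceptors or of the early eye field, had 0 counts in both libraries.

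Of 12 visual cycle genes, 5 were detected, a share near the 45.7% of all genes. RDH11, a retinol dehydrogenase found in many tissues, had 113 and 115 CPM, and DHRS3, which reduces retinal to retinol, had 37.95 and 96.2 CPM. RDH10, which makes retinal from retinol, had 19.7 and 25.9 CPM, and RDH5 1.31 and 3.35 CPM. LRAT, which stores retinol as esters, had 6 and 25 counts. RGR, TTR and RBP4, an opsin and the carriers of retinol in blood, had 0 counts in each library.

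Of 14 pigment genes, 4 were detected, against 45.7% of all genes, and 6 were not detectable. RAB27A, which tethers melanosomes and other granules and is used by many cells, had 45.2 and 43.0 CPM. TYR (0 and 1 counts), the enzyme that starts melanin synthesis, DCT (0 counts in both), a later enzyme, and OCA2 and TRPM1 (0 counts in both) were at the floor. TYRP1 had 1 and 6 counts. GPR143, a receptor of the melanosome membrane that is mutated in ocular albinism, was among the 4 detected. It had 58 counts in replicate 1 and 536 in replicate 2, or 2.17 and 21.9 CPM. MITF is known to bind the M-box, TCATGTG, which holds the E-box letters CANNTG. Searched on both strands of the window from 250 bases before to 50 after each start in RefSeq (GRCh38.p14), TCATGTG was found in 4 of 10 matched pigment genes (40%; GPR143, SLC24A5, TYR and TYRP1), against 2.97% of 27195 promoters. The 250 bases before the start of a detected pigment gene and of a pigment gene that was not detectable are shown here, 5′ to 3′ on the gene's strand, with each M-box in capitals (CACATGA is its reverse complement). For GPR143 the window is chrX:9765848-9766097 on the minus strand, and other annotated transcripts of this gene start elsewhere. For TYR it is chr11:89177625-89177874 on the plus strand.
GPR143: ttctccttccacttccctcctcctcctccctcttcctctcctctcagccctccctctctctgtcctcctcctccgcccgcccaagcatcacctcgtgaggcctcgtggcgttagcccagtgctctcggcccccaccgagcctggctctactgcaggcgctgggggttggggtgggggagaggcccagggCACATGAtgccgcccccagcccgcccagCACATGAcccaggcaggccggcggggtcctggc
TYR: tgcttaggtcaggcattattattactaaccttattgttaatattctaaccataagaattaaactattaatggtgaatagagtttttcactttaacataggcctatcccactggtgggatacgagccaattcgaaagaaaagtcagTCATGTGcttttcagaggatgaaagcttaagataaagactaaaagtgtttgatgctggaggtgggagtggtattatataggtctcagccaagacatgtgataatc
Both windows hold the motif, 2 copies in GPR143 and 1 in TYR, while their levels differed. A match is a description of these letters only.

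Of 21 genes for channels, transport and phagocytosis in the pigment epithelium, 14 were detected, against 45.7% of all genes. The general members led. EZR, which links the membrane to actin in microvilli, had 795 and 707 CPM, and BSG, which escorts lactate transporters to the membrane, 438 and 496 CPM. For the uptake of outer segments, ITGB5 and ITGAV, which form the integrin that binds them, had 391 and 473 CPM and 317 and 255 CPM. GAS6, a ligand of the uptake receptor, had 314 and 336 CPM. MERTK, that receptor, had 1.27 and 5.35 CPM, values chosen after they were seen, and AXL, a related receptor, had 1148 and 1517 CPM. SLC16A8, AQP1, KCNJ13 and CLDN19, a lactate transporter, a water channel, a potassium channel and a tight junction protein of the native tissue, were not detectable, with at most 2 counts in a library. Over the 66 different genes of these lists and the marker list, 35 were detected, a share near that of all genes, and 18 were not detectable.

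**Figure D2:**
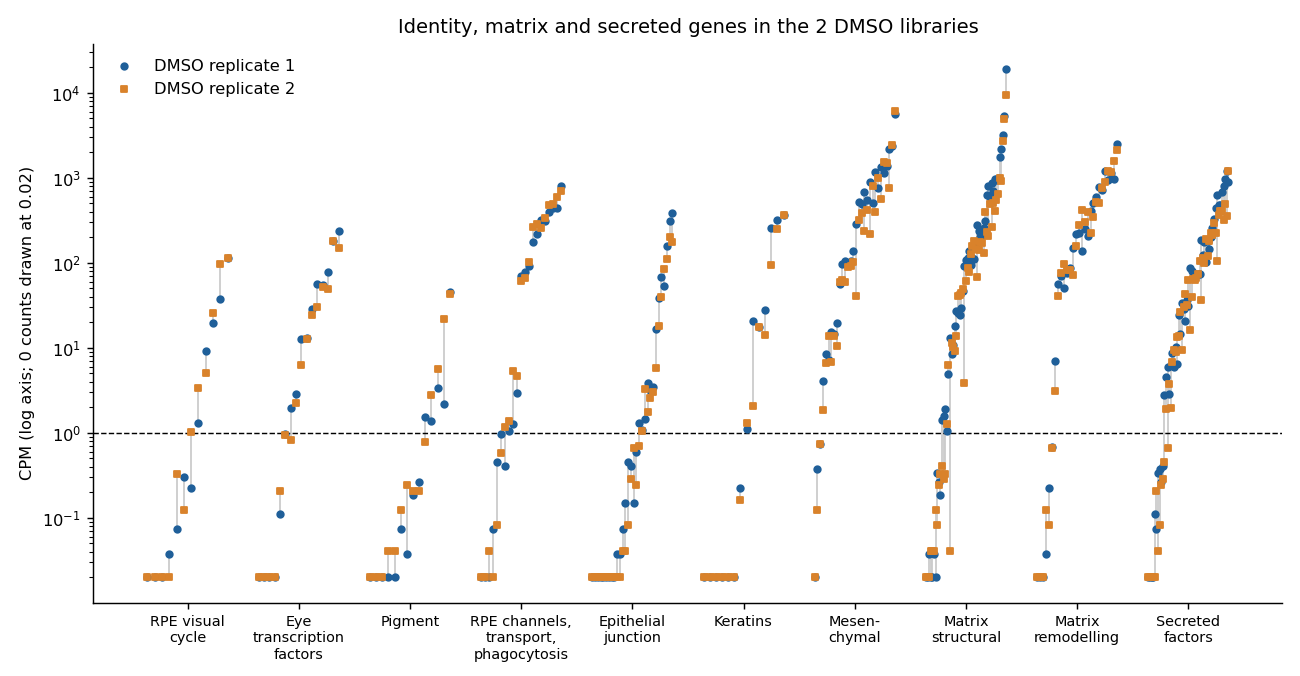
CPM (log axis, 0 counts drawn at 0.02) of every member of 10 gene lists in DMSO replicate 1 (circles) and replicate 2 (squares), ordered within a list by mean, with a dashed line at 1 CPM. The mesenchymal list has 27 of 30 members detected, while 12 of 30 epithelial junction genes and 4 of 14 pigment genes were detected. Of all genes, 45.7% were detected.

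Junction genes of epithelia were present in part. Of 30 genes of the epithelial junction and program list, 12 were detected, a share near the 45.7% of all genes. Another 12 were not detectable. DSP (desmoplakin, of desmosomes) had 380.5 and 173 CPM, TJP1 (a scaffold of tight junctions, also used at other contacts) 306 and 202 CPM, JUP (plakoglobin) 156 and 111 CPM, and PKP2 (plakophilin 2) 67.3 and 40.1 CPM. Adhesion molecules and regulators that define many epithelia were not detectable. CDH1 (E-cadherin), ESRP1 (an epithelial splicing factor), GRHL2, OVOL1, OVOL2 and ELF3 (transcription factors) had 0 counts in both libraries, and EPCAM had 1 and 0. CDH2 (N-cadherin), a cadherin of many mesenchymal cells, had 513 and 319 CPM. Of 14 keratins, 7 were detected, also near the share of all genes. KRT80 had 255 and 93.7 CPM, KRT7, a keratin of simple epithelia, 27.6 and 13.98 CPM, and KRT10 17.6 and 17.5 CPM, while KRT5, KRT14, KRT6A, KRT17, KRT1 and KRT20 had 0 counts in both libraries. KRT8 and KRT18 lie side by side on chromosome 12 and their annotated spans overlap, so reads of one could be counted to the other.

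Of 30 mesenchymal genes, 27 were detected, against 45.7% of all genes. After VIM, the members with most reads were ANXA2 (annexin A2) at 2392 and 2401 CPM, TPM1 (tropomyosin 1) at 2171 and 766 CPM, CD44 (the hyaluronan receptor) at 1375 and 1481 CPM, AXL as given above, and TPM2 at 1323 and 556 CPM. The levels of ANXA2 and CD44 nearly coincided in the libraries, whereas those of TPM1 and TPM2 did not. Transcription factors of the epithelial to mesenchymal transition were detected. ZEB1 had 104 and 59.9 CPM, ZEB2 96.4 and 63.3 CPM, SNAI1 19.6 and 10.5 CPM, SNAI2 15.3 and 6.78 CPM and TWIST1 14.5 and 13.8 CPM. CDH11, a cadherin of fibroblasts and osteoblasts, had 0 counts in both libraries, and CNN1 had 10 and 3.

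Of 43 markers of other cell types, 10 were detected, against 45.7% of all genes, and 21 were not detectable. The summed level of the 43 was 879 CPM in both DMSO libraries and 631 to 725 CPM in the doxorubicin libraries. The equal DMSO sums hide opposite differences. The 6 fibroblast markers summed to 396 CPM in replicate 1 and 167 CPM in replicate 2, and the 6 neuron markers to 283 and 498 CPM. In the doxorubicin libraries these sums were 156 to 281 CPM and 252 to 280 CPM. None of 8 photoreceptor markers and none of 6 melanocyte markers were detected, and RCVRN, SAG, SOX10, DCT and KIT had 0 counts. Of 6 immune markers, CD68, a lysosomal protein, was detected at 98.4 and 94.9 CPM, and CD3E and LYZ had 0 counts. Of 5 Müller glia markers, GLUL, glutamine synthetase, was detected at 98.2 and 111 CPM. Of 6 fibroblast markers, 3 were detected. COL1A1, a chain of collagen I, had 281 and 67.3 CPM, FAP 104 and 92.6 CPM and PDGFRA 8.53 and 6.62 CPM, while LUM had 0 and 1 counts. Of 6 neuron markers, 4 were detected. TUBB3, a tubulin also made by many dividing lines, had 180.0 and 362 CPM, SYT1, which triggers vesicle release, had 71.3 and 95.6 CPM, MAP2 had 30.6 and 36.5 CPM and SNAP25 had 1.24 and 3.23 CPM. RBFOX3, the neuronal nuclear marker, had 0 counts in both. Of 6 endothelial markers, KDR was detected, at 1.65 and 3.64 CPM. CDH5 had 2 and 56 counts, values chosen after they were seen.

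Reads of structural matrix genes lay mainly on FN1, THBS1 and VCAN, whose transcripts are long (8390, 7789 and 12345 bases). FN1 had 18831 and 9475 CPM, THBS1 5366 and 4903 CPM, and VCAN 3171 and 2715 CPM. The 51 structural matrix genes summed to 40422 CPM in replicate 1 and 24465 CPM in replicate 2. Of these genes 37 were detected, against 45.7% of all genes, and 7 were not detectable. After FN1, THBS1 and VCAN came SPARC, which binds collagen, at 2172 and 919 CPM, FBN1 (fibrillin 1) at 1774 and 1006 CPM and LAMC1 (laminin gamma 1) at 992 and 637 CPM. The laminin chains LAMB1 (592 and 488 CPM) and LAMB2 (211 and 172 CPM), the collagen IV chains COL4A1 (873 and 267 CPM) and COL4A2 (930.4 and 549 CPM) and the nidogens NID1 (115 and 85.9 CPM) and NID2 (113 and 158 CPM) are parts of basement membrane. EFEMP1, a matrix protein linked to deposits under the retina, had 795 and 205 CPM. These lie outside the 6 leading members and were picked after their values were seen. The fibrillar collagens were uneven. COL1A1 had 7513 and 1647 counts, but its partner COL1A2 had 7 and 6, COL3A1 had 9 and 2, and COL5A1 had 0 and 1. Collagen VI was uneven in the same way, with COL6A1 at 728 and 339 counts and COL6A2 at 0 and 3. LAMA1, FBLN1, LUM, MFAP5 and FBLN2 were not detectable either, with at most 1 count in a library.

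Of 28 genes that crosslink or remodel matrix, 22 were detected, against 45.7% of all genes, with a summed level of 11265 and 11309 CPM. The leading members were MMP2 (gelatinase A) at 2464 and 2145 CPM, TGM2 (a transglutaminase) at 976 and 1557 CPM, MMP14 (a membrane protease that activates MMP2) at 944 and 1199.7 CPM, TIMP2 (an inhibitor of both) at 1213 and 889 CPM, and CTSB (cathepsin B) at 727 and 760 CPM. The order of these by reads differed between the libraries after MMP2. MMP1 (a collagenase), MMP9 (a gelatinase) and the stromelysins MMP3 and MMP10, which inflammatory signals are known to raise, were not detectable, with at most 3 counts. TIMP3, which native pigment epithelium deposits in Bruch's membrane, had 18 and 16 counts, values chosen after they were seen.

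Of 51 secreted growth factors and cytokines, 39 were detected, against 45.7% of all genes, and 5 were not detectable. Among these 51, STC2 (stanniocalcin 2) took most reads by mean, with 884 and 1189 CPM. SFRP1, a secreted protein outside this list, took more, with 1929 and 2219 CPM. CCN1 and CCN2, matricellular proteins and targets of YAP, had 1210 and 354 CPM and 798 and 315 CPM, IGFBP7 976 and 494 CPM, CRIM1 685 and 405 CPM and TGFB1 481 and 408 CPM. VEGFA, which native pigment epithelium secretes toward its blood supply, had 258 and 215 CPM, whereas SERPINF1, the factor with the opposite action on vessels, had 11 and 29 counts. Among cytokines and chemokines, CCL2 had 2332 and 395 counts, IL6 121 and 47, and CXCL8 11 and 7, while CXCL1, CXCL12 and HGF had 0 in both. MIF, a cytokine that most cells make, is listed at 0 in all 5 libraries, and how reads with several places were counted is not known, so no absence is read from it. SFRP1, VEGFA, SERPINF1, CCL2, IL6 and CXCL8 were picked after their values were seen.

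The 2 control libraries differed in a set of named genes. With total counts as the scale, 508 of the 9255 genes with a mean of at least 10 CPM were at least 2-fold apart (5.49%). Of these, 279 were higher in replicate 2 (3.01%) and 229 were lower (2.47%). The split turned with the scale: with TMM normalization it was 192 higher and 291 lower, and with DESeq2 size factors 174 and 312. The median log2 ratio over all genes was 0.12 with total counts and 0.00 with size factors, and ratios below are on the scale of total counts. The median size of the log2 ratio was 0.32. With 1 library on each side there is no replicate check of a single gene, so no test was made, and intervals are 95% counting intervals only.

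**Figure D3:**
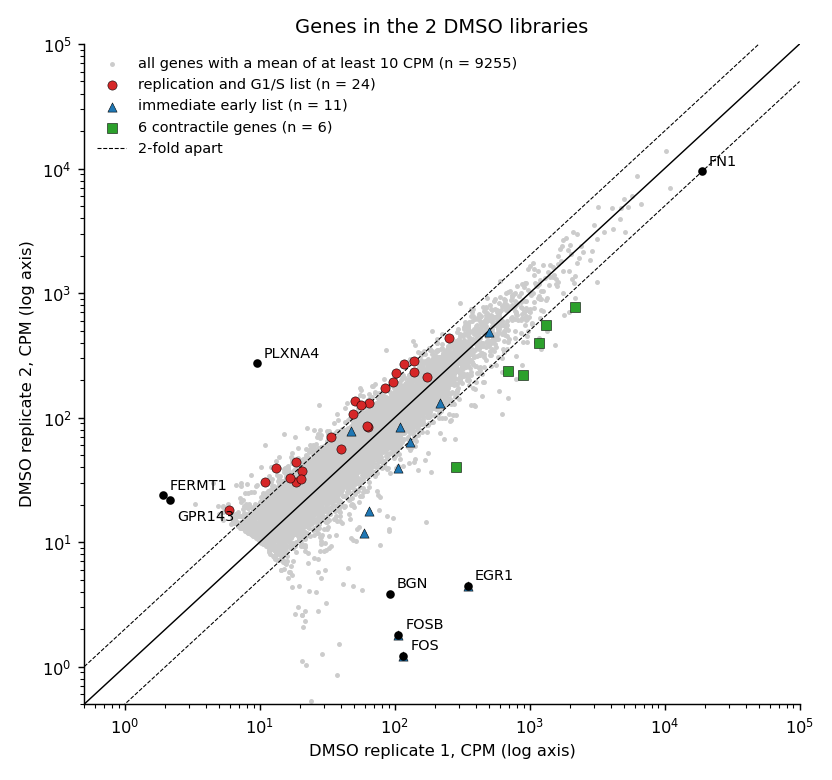
CPM in DMSO replicate 1 and replicate 2 (both axes logarithmic) for the 9255 genes with a mean of at least 10 CPM, with 24 replication genes, 11 immediate early genes and 6 contractile genes marked. All 24 replication genes lie above the solid line of equality and all 6 contractile genes lie below the lower dashed line of a 2-fold difference.

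PLXNA4, a receptor of axon guidance cues, was farthest to the side of replicate 2. It had 253 and 6662 counts, or 9.47 and 272 CPM, a ratio of 28.8 (25.4 to 32.7). FERMT1, an activator of integrins in epithelia, had 1.91 and 23.9 CPM (ratio 12.5), GPR143 a ratio of 10.1 (7.69 to 13.5), and KIF5C, a kinesin of neurons, 4.53 and 29.8 CPM (ratio 6.57). PPAP2C (6.11), RNA5-8S5 (5.52), PTX3 (4.89), COL13A1 (4.54), TMEM200A (4.35) and SH3TC2 (4.10) followed. PTX3 codes for a pentraxin of innate immunity and COL13A1 for a collagen of the cell membrane. On the other side, FOS had 3087 counts in replicate 1 and 30 in replicate 2, or 116 and 1.23 CPM, and was 94.2-fold lower (65.9 to 140). EGR1 had 348 and 4.45 CPM and was 78.1-fold lower, and FOSB had 106 and 1.80 CPM and was 59.0-fold lower. These are transcription factors that cells switch on within minutes of serum, stretch or stress. TP53I11 (44.9-fold), CRYAB (43.6-fold), SULF1 (25.5-fold), BGN (23.8-fold), CTSZ (22.8-fold), PALMD (21.5-fold) and CDCP1 (18.6-fold) were lower too. CRYAB is a small heat shock protein, SULF1 edits heparan sulfate, and BGN is the matrix proteoglycan biglycan, at 91.5 and 3.84 CPM.

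The 0.2 μM doxorubicin pair, which shares no library with the DMSO pair, gave like values for several of these genes. PLXNA4 had 2.49 CPM in 0.2 μM replicate 1 and 69.8 CPM in replicate 2, a ratio of 28.1, and GPR143 had 3.24 and 29.9 CPM, a ratio of 9.24. FOS had 124 and 0.294 CPM, EGR1 226 and 1.85 CPM, BGN 65.7 and 4.88 CPM and CDCP1 28.7 and 1.26 CPM. The 0.34 μM library had 2.59 CPM of PLXNA4, 3.24 of GPR143, 49.7 of FOS, 170.3 of EGR1 and 63.8 of BGN, each nearer, on the log scale, to replicate 1 of the other groups than to replicate 2. For other genes the pairs differed. PPAP2C had a ratio of 1.48 in the 0.2 μM pair, PTX3 1.41 and RNA5-8S5 0.797. In the 0.2 μM pair 108 genes were at least 2-fold higher in replicate 2 (1.17%) and 187 at least 2-fold lower (2.02%). The pairs shared 45 higher genes, 16.1% of those of the DMSO pair and 41.7% of those of the 0.2 μM pair, and 93 lower genes, 40.6% and 49.7%. The direction in the 0.2 μM pair was the same for 196 of the 279 higher genes (70.3%, where 59.9% of all genes were higher there) and for 208 of the 229 lower genes (90.8%, where 40.1% of all genes were lower there).

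**Figure D4:**
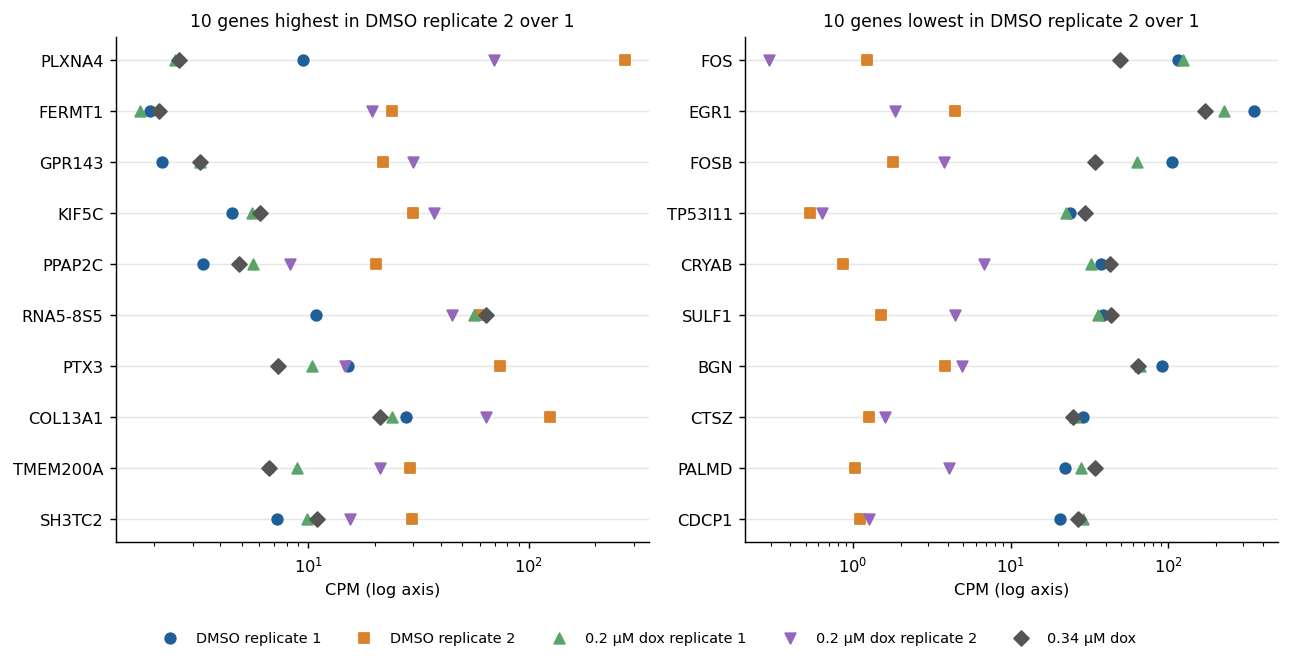
CPM (log axis) in all 5 libraries for the 10 genes with the largest ratio of DMSO replicate 2 to replicate 1 (left) and the 10 with the smallest (right), with 1 marker per library. PLXNA4, GPR143, FOS, EGR1 and BGN in 0.2 μM replicate 2 lie on the side of DMSO replicate 2, while 0.2 μM replicate 1 and the 0.34 μM library lie on the side of DMSO replicate 1.

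Gene groups differed between the control libraries as well. In the replication and G1/S list, 13 of 24 members with at least 10 CPM were at least 2-fold higher in replicate 2 and none was 2-fold lower, and all 24 were higher by any amount. The median log2 ratio was 1.03, against 0.12 over all genes, and 0.94 with TMM normalization. MCM4, a subunit of the replicative helicase, had 139 and 287 CPM, MCM7, another subunit, 118 and 269 CPM, and RRM2, which makes deoxynucleotides, 254 and 436 CPM. UHRF1, which maintains DNA methylation, had 103 and 229 CPM. In the G2/M list, of genes of mitosis, 1 of 20 was 2-fold higher and the median log2 ratio was 0.34. MKI67, a marker of cycling cells, had 1388 and 1152 CPM, and TOP2A, the topoisomerase that doxorubicin poisons, had 684 and 725 CPM. In the 0.2 μM pair the median of the replication list was 0.45, with 2 members 2-fold higher.

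Replication genes are known targets of E2F factors. The E2F site, TTTGGCGC or TTTCCCGC on either strand, was found in 14 of 21 matched promoters of the replication list (66.7%) and in 2.32% of 27195 promoters. In the immediate early list the CArG box, the site of serum response factor, was found in 1 of 12 matched promoters (8.33%), that of EGR1, and in 1.29% of all promoters. The 250 bases before the start are shown for a gene of each group that was far apart between the libraries: CDT1, a replication licensing factor, with 13.2 and 39.2 CPM (ratio 2.97), and EGR1. The windows are chr16:88803539-88803788 and chr5:138465229-138465478, both on the plus strand of GRCh38.p14, with the E2F site of CDT1 and the 2 CArG boxes of EGR1 in capitals.
CDT1: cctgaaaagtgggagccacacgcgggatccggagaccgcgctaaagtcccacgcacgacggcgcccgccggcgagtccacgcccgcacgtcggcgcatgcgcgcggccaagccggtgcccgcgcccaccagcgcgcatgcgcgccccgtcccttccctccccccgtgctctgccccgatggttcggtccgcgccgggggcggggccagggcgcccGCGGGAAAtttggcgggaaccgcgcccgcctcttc
EGR1: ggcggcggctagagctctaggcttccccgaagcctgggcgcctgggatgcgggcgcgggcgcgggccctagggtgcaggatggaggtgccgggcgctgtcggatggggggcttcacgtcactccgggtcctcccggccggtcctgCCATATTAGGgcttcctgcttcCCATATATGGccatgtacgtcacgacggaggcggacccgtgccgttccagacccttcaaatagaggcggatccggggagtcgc
These matches describe letters in a window and not binding.

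In the immediate early list, 7 of 11 members were at least 2-fold lower in replicate 2 and none was 2-fold higher, with a median log2 ratio of -1.44. Beside FOS, EGR1 and FOSB, JUNB had 64.3 and 17.7 CPM, ZFP36 59.0 and 11.8 CPM, DUSP1 106 and 39.2 CPM and IER3 129 and 63.4 CPM. FOSL1, a slower member of the FOS family, had 499 and 487 CPM and MYC 109 and 83.6 CPM. In the 0.2 μM pair the median was -1.33. Of the mesenchymal list, 7 of 25 members were 2-fold lower and none higher, and 6 of the 7 were contractile genes. ACTA2 (smooth muscle actin) had 282 and 40.4 CPM, MYL9 (a myosin light chain) 888 and 220 CPM, TAGLN (transgelin) 687 and 237 CPM, CALD1 (caldesmon) 1169.5 and 395 CPM, and TPM1 and TPM2 as given above. Their median log2 ratio was -1.55, and -1.11 in the 0.2 μM pair. The other 19 mesenchymal genes had a median of -0.10, and SNAI2 was the 1 of them that was 2-fold lower. The contractile subset was drawn after its values were seen.

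Matrix and secreted genes were more often lower than higher in replicate 2. Of 34 structural matrix genes with at least 10 CPM, 7 were 2-fold lower and none 2-fold higher, and the median log2 ratio was -0.55 (-0.78 in the 0.2 μM pair). They were BGN, COL1A1, EFEMP1, COL4A1, TGFBI, SPARC and COL8A1, and FN1, with a log2 ratio of -0.99, fell just short. TGFBI, a matrix protein induced by TGF-beta, had 620 and 231 CPM. POSTN, which is under the level filter, had 347 and 1 counts. Of 32 secreted factors 7 were 2-fold lower and 1 was 2-fold higher, with a median of -0.25. TGFB2, a growth factor of the eye, had 622 and 106 CPM, CCL2, a chemokine, 87.3 and 16.1 CPM, IGFBP5 187 and 36.3 CPM and EDN1 33.9 and 9.32 CPM. DKK1, an inhibitor of WNT signalling, was the higher 1, with 20.8 and 43.4 CPM. The crosslinking list had 1 member higher, PLAU (136 and 414 CPM), and 1 lower, P4HA1 (148 and 72.1 CPM). Its median was 0.06, and TMM normalization and size factors lower every log2 ratio by the same amount, which takes this median below 0.

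Keratins and junction genes were on the same side as the matrix genes. Of 6 keratins 2 were 2-fold lower in replicate 2, KRT80 and KRT81 (20.8 and 2.08 CPM), and none higher. Of 7 junction genes 3 were 2-fold lower, DSP, MUC1 (38.4 and 17.9 CPM) and F11R (16.8 and 5.80 CPM). Of the 26 members of the pigment epithelium groups with at least 10 CPM, 2 were 2-fold higher, GPR143 and DHRS3, and none was 2-fold lower, where 5.49% of all genes were 2-fold apart. The median log2 ratio was 0.39 for 3 visual cycle genes, all higher, and -0.22 for 7 transcription factors, 6 of them lower. On the scales of TMM and of size factors, 2 of the 3 visual cycle genes were higher and all 7 transcription factors were lower. In the sterol synthesis list 1 of 17 members was 2-fold higher, and the median was 0.45. The interferon list (7 members with at least 10 CPM) and the amino acid and ER stress list (11) had no member 2-fold apart. The hypoxia list had 2 of 15 members lower, NDRG1 and PDK1, and the list of YAP targets 3 of 12, CCN1, CCN2 and F3. MALAT1, a long nuclear RNA among the 100 genes with most reads, had 1543 and 383 CPM, against 1057 and 1069 CPM in the 0.2 μM pair, and was picked after its values were seen.

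The identity, matrix and secreted genes were then compared with the doxorubicin libraries. By edgeR's quasi-likelihood test on 3 doxorubicin against 2 DMSO libraries, 571 of 14187 genes passed an adjusted p of 0.01 (4.02%), 183 higher (1.29%) and 388 lower (2.73%). Of the 267 genes in these lists 200 were tested, and 6 passed, 5 higher and 1 lower. The listed count depended on the model. With the replicate number as a block in the 0.2 μM and DMSO libraries, 35 of 196 listed genes passed, against 1249 of 13891 in all. Without the block the same libraries gave 2 and 178. The median log2 fold change of the 200 was 0.34, against 0.01 over all genes, and 136 were above 0 and 64 below. Without DMSO replicate 2 it was 110 above and 97 below of the listed genes then tested, and without DMSO replicate 1 146 and 61. Of the 9 marker genes 7 were tested and 0 passed edgeR's threshold, while 4 had an unadjusted p under 0.05. KRT8 passed with DESeq2, with edgeR on unfiltered counts and with edgeR on the 0.2 μM and DMSO libraries with a replicate block. In the reported fit KRT8 came nearest, with 644, 644 and 653 CPM after doxorubicin against 362 and 361 CPM, and edgeR's adjusted p was 0.0133.

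RDH10 rose from 19.7 and 25.9 CPM in DMSO to 124 and 106 CPM at 0.2 μM and 136.5 CPM at 0.34 μM, and no library of one treatment overlapped the other (log2 fold change 2.46, SE 0.20, adjusted p = 0.00124 by edgeR). COL7A1, the collagen of anchoring fibrils, rose from 46.0 and 49.1 CPM to 199, 319 and 305 CPM (2.56, SE 0.24, adjusted p = 0.00181 by edgeR). HSPG2, the basement membrane proteoglycan perlecan, rose from 168 and 147 CPM to 579, 396 and 673 CPM (1.83, SE 0.27, adjusted p = 0.00886 by edgeR). FGF2, a growth factor, rose from 125 and 113 CPM to 264, 295 and 266 CPM (1.23, SE 0.15, adjusted p = 0.00492 by edgeR). PRRX1, a transcription factor of mesenchyme, was the 1 that fell, from 94.5 and 88.3 CPM to 30.9, 28.9 and 29.7 CPM (log2 fold change -1.59, SE 0.14, adjusted p = 0.00163 by edgeR). With 1 DMSO library left, the spread comes from the doxorubicin libraries alone and the lone library is assumed to vary like them. Then, without DMSO replicate 2 none of the listed genes passed (49 of all genes), and without DMSO replicate 1 there were 4, of which PRRX1 alone was among the 6. The fold changes moved little, with RDH10 at 2.60 and 2.31 and COL7A1 at 2.54 in both fits on the log2 scale. Without 1 doxorubicin library 2 or 3 passed, and DESeq2 called 34 listed genes, the 6 among them.

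**Figure D5:**
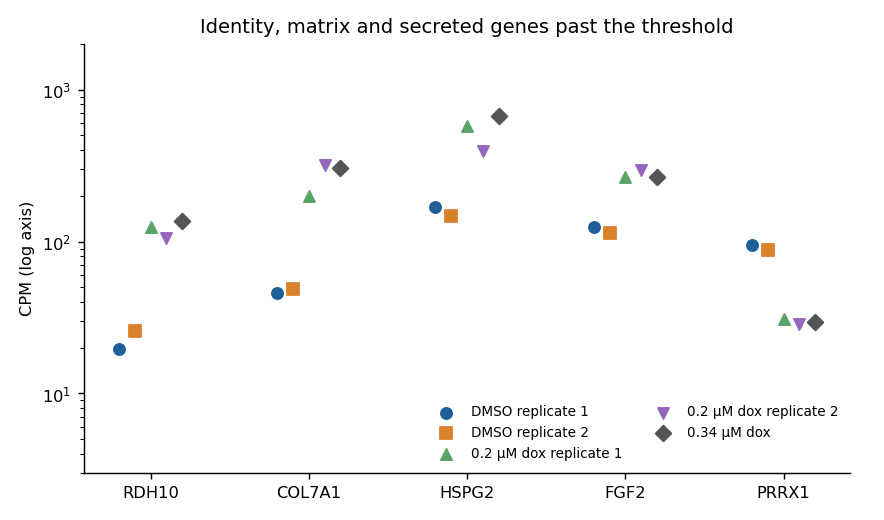
CPM (log axis) in each of the 5 libraries for 5 identity, matrix and secreted genes past the threshold, with 1 marker per library. RDH10, COL7A1, HSPG2 and FGF2 lie higher in the 3 doxorubicin libraries than in both DMSO libraries, and PRRX1 lies lower, at 28.9 to 30.9 CPM against 88.3 and 94.5 CPM.

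The lists with most calls after doxorubicin were those of the cell cycle. In the G2/M list 20 of 20 genes were lower and in the replication list 17 of 25, none higher in either, against 2.73% of all genes lower. PLK1, a mitotic kinase, had 204 and 198 CPM in DMSO and a log2 fold change of -5.53. The replication genes are also those that differed between the DMSO libraries, whose part in these calls was not tested. TUBA1B, among the 20 genes with most reads, fell from 3527 and 3099 CPM to 857, 673 and 583 CPM, with a log2 fold change of -2.21 and an edgeR adjusted p of 0.00219. In the other lists FOSL1 (-1.76), ASNS (-1.38) and PHGDH (-1.72) were lower and SESN2 (2.38) and AJUBA (1.48) were higher on the log2 scale.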

How the data were processed

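Poly-A RNA-seq was available for 5 libraries of RPE1 cells (2 DMSO, 3 doxorubicin). The authors deposited whole-number counts, not normalized, for 26485 genes, made from paired-end reads of a stranded poly-A kit mapped to hg38 with STAR and counted with featureCounts of Rsubread on the iGenomes annotation. The sources used here give no versions, strand setting or handling of reads with several places, so reads of overlapping genes and copies may be split or shared. A table of the authors' own DESeq2 comparison (mean normalized count, fold change, its error, test statistic and p-values) was not used. Groups came from the treatment labels. The methods call repeats biological replicates, and p-values measure the spread between these libraries.

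CPM was the count over the library total (23773061 to 36725345), and intervals of ratios were exact binomial at 95%. TPM used lengths of GENCODE 44 canonical transcripts, matched for 20676 genes. Positions and promoters came from RefSeq on GRCh38.p14, with 25320 genes positioned. Of 48 genes ranked by reads, marker or library ratio, 45 had a position and 24 of them overlap another annotated gene. In the doxorubicin comparison edgeR 4.0.16 (R 4.3.3) fitted TMM-normalized counts by quasi-likelihood on 3 pooled doxorubicin against 2 DMSO libraries with no covariates, after its default filter (minimum count 10, total 15), and p-values were adjusted by Benjamini-Hochberg over 14187 genes with a threshold of 0.01. The fit was tested on simulated data. DESeq2 1.42.0 and limma 3.58.1 were alternatives, as were other scales, filters, folds, thresholds, each library left out and a replicate block.

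The members and the 26 gene lists (434 genes, from general knowledge) were chosen with earlier results of these data known. Genes are named by rule: the 20 with most reads, the 9 markers, up to 6 leading and up to 6 undetectable members of each list, the 10 largest ratios each way between the DMSO libraries, and up to 5 members of a list with the smallest p past the threshold. Other named members were chosen after their values were seen. Some items that this rule names are not reported here.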

Additional observations from a re-analysis of the deposited data

How the results depend on the processing

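Of the recomputed counts and shares, 47 stayed within 1.5 times the reported count or the spread between libraries, and 27 moved. Detection was stable under the other thresholds, each library alone and thinning, except that at 5 CPM in both libraries 12 epithelial genes (junction and keratin lists) were detected in place of 19. Ranked per kilobase, the first 10, 100 and 1000 genes took 4.02%, 16.5% and 46.4% of the counts. The number of genes 2-fold apart between the DMSO libraries was 1214 with a mean of at least 1 CPM, 4533 with no filter, 2135 at 1.5-fold and 115 at 3-fold. After doxorubicin, DESeq2 called 34 listed genes and 2062 in all, no filter gave 22 and 1020, the 0.2 μM libraries alone gave 2 and 178, and a threshold of 0.05 gave 29 and 1927. Leaving out 1 library gave 0 to 4 listed genes and 49 to 215 in all. limma voom and other scalings changed no call of the 6. Over 12 settings none of these 6 changed direction, and each lost its call in 2 (RDH10) to 6 (FGF2) of them, which include fits with fewer libraries. Leaving out mitochondrially encoded genes could not be run, since the table has no such row.

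With the replicate number as a block in the 0.2 μM and DMSO libraries, edgeR called 35 of 196 listed genes and 1249 of 13891 in all. Without the block it called 2 and 178. The labels do not say what a number shares, and there are 2 pairs, so the block was not taken as the design. The log2 ratios of replicate 2 to 1 in both pairs had an r of 0.492 across 9255 genes. Depth limits what is under 3 counts in a library, and 2 control libraries limit every statement on their spread.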
